A study of Arabidopsis thaliana with 18 samples.

Results

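Roots of Arabidopsis thaliana under 2 different disturbances of potassium supply were compared directly, caesium-treated roots against potassium-starved roots. The comparison used 6 of the 18 arrays of the series, taken by their labels, 3 for each treatment. All plants were of ecotype Ws-2 and labelled with growth stage 3.90, with no transgene or mutation named, and all root material was taken. Potassium-starved plants received 1/10 strength MS nutrient solution from which potassium was left out, and caesium-treated plants 1/10 strength MS solution with 2 mM caesium. The 3 control root arrays, whose labels state no treatment, stand here as a reference level, and shoots of the same treatments only where roots and shoots were set against each other. Material of 40 to 50 plants was combined for every sample, and each sample has its own Affymetrix ATH1 array, a set of short oligonucleotide probes in which each probe set reports 1 transcript or a few related ones. The labels number the samples 1 to 3 without saying whether they came from separate cultures, so p-values here refer to how much these particular samples varied.

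Potassium is the most abundant inorganic cation of plant cells, where it carries turgor, charge balance and enzyme activity, and roots take it up through high-affinity carriers and inward channels. Caesium is a larger alkali ion of the same charge that plants do not need. It enters by some of the same routes, blocks potassium channels and at high supply lowers potassium uptake, so a caesium-treated root can be short of potassium while external potassium is still there. Roots short of iron switch on a separate program, in which coumarins made from feruloyl-CoA are oxidised and secreted to mobilise iron, under the control of a cascade of bHLH transcription factors.

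Signals are array units on a linear scale, differences are on the scale of log2(signal + 16), caesium-treated minus potassium-starved, and errors of differences are standard errors. A probe set was called when its adjusted p from limma (Benjamini-Hochberg over all probe sets tested) was under 0.05, and a signal of 27.7 was the floor for testing. PYK10, an abundant root glucosidase and the root marker with a named probe set, was bright on every root array, between 1915 and 3501. Correlations across probe sets ran from 0.955 to 0.985 between arrays of 1 root group and from 0.902 to 0.957 between caesium-treated and potassium-starved arrays. The scanner background was 66.48, 63.59 and 72.51 on the caesium arrays and 61.05, 60.97 and 73.96 on the potassium-starved arrays, and the median signal lay between 39.4 and 44.8. Of 10 array measures compared by two-sided exact permutation tests, 0 passed after adjustment, and none could, since 3 against 3 arrays cannot give a p below 0.1. Outlier cells did not overlap, at 252, 257 and 246 with caesium against 443, 350 and 276 under starvation (exact permutation p = 0.1, adjusted p = 0.333). Control roots had 473, 211 and 246. The 25S ribosomal RNA control probe set read 2862, 2188 and 211.5 with caesium against 154, 471.4 and 159.8 under starvation (exact permutation p = 0.2, adjusted p = 0.4). The 4 named of 7 shoot markers, RCA, SBPASE, PRK and LHCB4.2, summed to 207.9, 283.4 and 202.7 with caesium, 90.8, 171.8 and 108.7 under starvation, and 63.9, 80.4 and 163.6 in control roots (caesium against starvation, exact permutation p = 0.1, the smallest possible, adjusted p = 0.333). No caesium array was as low as a potassium-starved one, while in shoots the same sum ran from 4424 to 9625. RCA, the 1 shoot marker tested, made up most of the sum, at 127.9, 185.5 and 128.7 with caesium against 45.4, 113.2 and 56.2 under starvation (0.96, not called). The other shoot markers lay below the floor for testing. LHCB4.2, a light-harvesting protein, was at 20.1, 28.8 and 17.9 with caesium against 1.9, 4.5 and 6.3 under starvation. PRK overlapped, at 32.1, 31 and 27.4 against 25.5, 27.6 and 22.9. The 4 named of 11 root hair markers summed to 196.2, 370 and 256 with caesium, 176.7, 165.8 and 156.3 under starvation and 226.7, 454.6 and 192.5 in control roots (caesium against starvation, exact permutation p = 0.1, adjusted p = 0.333). Of the 3 tested, 0 were called. AT3G49960 was at 40.2, 139.4 and 82.2 with caesium against 20.7, 34.1 and 20, while EXPA7 overlapped, at 64.2, 89.5 and 53.5 against 75.1, 49.4 and 64. The 2 named of 4 pericycle and stele markers, LBD16 and LBD29, were lower with caesium (-0.35 and -0.33), with 0 called. The part of the ribosomal RNA, shoot marker and root hair signals in the results was not tested beyond the covariate fits given with the counts. Of the marker lists for endodermis, phloem and xylem, 0 members had a named probe set, so they were not assessed. In whole roots, fewer cells of a type and less RNA per cell cannot be told apart.

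Caesium-treated and potassium-starved roots differed at 690 of 13647 probe sets tested (5.06%). Of these, 341 (2.5%) were higher with caesium and 349 (2.56%) lower, and 204 differed by 2-fold or more, 84 of them higher and 120 lower. The median difference over all probe sets tested was 0.03, with 7356 differences above 0. Every called probe set had 3 caesium values on 1 side of all 3 potassium-starved values, but so did many that were not called, with caesium above at 2237 probe sets (16.4%) and below at 1887 (13.8%). Measured against control roots, which both comparisons share, starvation gave 200 calls (1.47%) and caesium 0 (0%), with 1352 at an unadjusted p under 0.05 in limma. The control mean lay between the other means at 317 of the 341 probe sets higher with caesium and at 290 of the 349 lower, and it was nearer to the caesium mean at 241 and 252 of them. These positions are a description, since probe sets chosen for a wide gap leave most room for the control between.

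The counts depended on which arrays were used, and the calls higher with caesium depended on it most. Left out one at a time, the arrays gave between 149 and 767 calls. Without caesium replicate 1 there were 45 higher and 104 lower, without caesium replicate 3 there were 68 and 140, without potassium-starved replicate 2 there were 46 and 103, and without potassium-starved replicate 3 there were 48 and 103. When the 25S ribosomal RNA probe was made a covariate, an alternative chosen after the data were seen, 21 calls were left, 1 higher and 20 lower. With the summed shoot markers as a covariate, also chosen afterwards, there were 846 calls, of which 433 were among the 690. The 2 root arrays whose titles mark them as repeats, potassium-starved replicate 1 and caesium replicate 2, could also be left out together, which gave 377 calls.

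**Figure D1:**
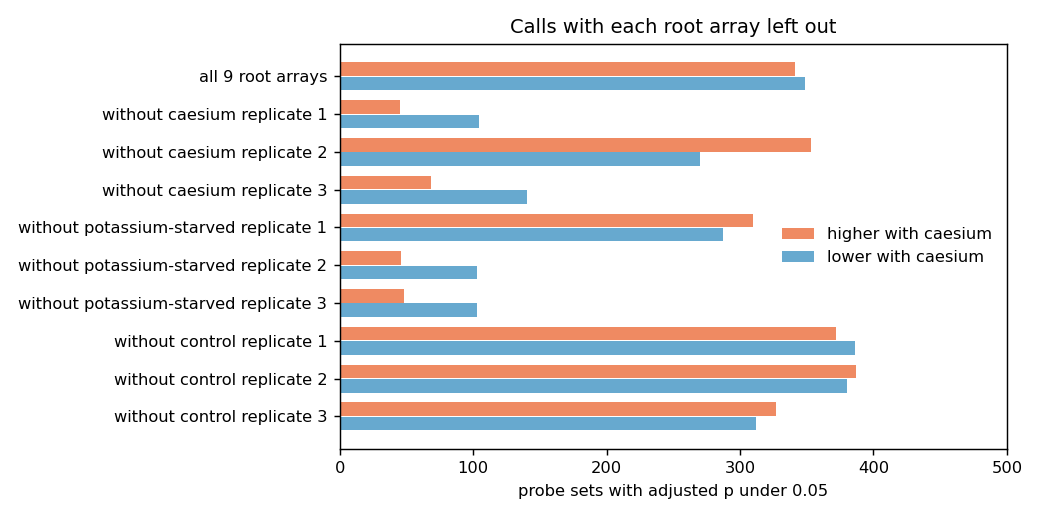
Number of probe sets with adjusted p under 0.05 (horizontal axis) among caesium-treated against potassium-starved roots, with all 9 root arrays in the fit (top bars) and with each array left out, orange for higher and blue for lower with caesium. The bars shrink to 45 higher and 104 lower without caesium replicate 1 and stay near 341 and 349 without any 1 control array.

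Genes of the iron-deficiency and coumarin program were the clearest group, and they were lower with caesium than under potassium starvation. Of 18 listed iron-deficiency root genes, 9 had a named probe set and all 9 were tested. Of these 9, 8 were lower with caesium, against 2.56% of all probe sets, and 0 were higher, with a median difference of -1.53 against 0.03 for all. This list was among those added after the probe table was seen, with earlier results of these data known, so its direction is no independent evidence. Relative to the mean of the 9 root arrays, the list's median was 1.00, 1.16 and 0.82 on the potassium-starved arrays, -0.75, -0.78 and -0.85 on the caesium arrays, and -0.21, -0.45 and -0.14 on the control arrays. The 3 groups did not overlap, with control roots lying closer to caesium-treated than to starved ones. The number of lower members ranged from 6, without potassium-starved replicate 2, to 8 with an array left out, and it was 4 when the 25S ribosomal RNA probe was made a covariate. In the fits with 6 and 4, 103 and 20 of all 13647 probe sets were called lower. The separate iron deficiency and coumarin list, written earlier, had 23 genes, of which 6 had a named probe set and 5 were tested. Of these 5, 3 were lower and 0 higher, with a median of -0.89. It shares AT3G12900 and AT3G13610 with the list above.

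AT3G12900, a locus on both the iron and the coumarin list, had the largest difference of any named gene. Its signal was 53.6, 58.7 and 49.5 with caesium, 948.4, 939.9 and 1007 under starvation, and 131.7, 102.8 and 181.6 in control roots. Every starved array was far above the highest control array, and every caesium array lay below the lowest control array. The difference was -3.81 ± 0.17 (limma adjusted p = 1.97e-06), and over 23 other settings it stayed between -4.14 and -3.13 with adjusted p up to 0.000289. Against control the difference was 2.70 ± 0.17 for starvation (adjusted p = 8.53e-05) and -1.12 ± 0.17 for caesium (adjusted p = 0.0628).

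AT3G13610, which carries the synonym F6'H1 in the annotation and makes the coumarin precursor from feruloyl-CoA, was at 1496, 1914 and 1678 with caesium and at 3497, 3572 and 3033 under starvation. Control roots, at 1580, 1981 and 1640, overlapped the caesium values and stood clear of the starved ones. Its difference was -0.99 ± 0.15 (adjusted p = 0.00706). It passed in all 9 fits without 1 array, but not when the 25S ribosomal RNA probe was made a covariate. BGLU42, a beta-glucosidase that releases coumarins from their glucosides for secretion, read 78.4, 72.1 and 56.9 with caesium, 214, 103.7 and 123.1 under starvation and 92.9, 63.9 and 65.7 in control roots. The caesium and starved values did not overlap, but the difference of -0.89 ± 0.23 missed the threshold (adjusted p = 0.0513). UGT72E1, a glucosyltransferase of monolignol aldehydes that is on the iron list, was at 198.6, 356.7 and 412.5 with caesium, at 793.9, 1067 and 934.6 under starvation and at 227.6, 422.6 and 475.6 in control roots. Its values in the caesium and control groups overlapped, and the difference between caesium and starvation was -1.53 ± 0.29 (adjusted p = 0.0189). That call was lost without caesium replicate 1 and without potassium-starved replicates 2 and 3 (adjusted p up to 0.0758).

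The remaining members of the iron list are known to these tables by locus alone. AT3G61930 was at 31.1, 40.4 and 37.7 with caesium, 403.7, 348.1 and 235.9 under starvation, and 77.5, 73.4 and 89.2 in control roots. Its 3 groups were fully separate, with a difference of -2.69 ± 0.18 (adjusted p = 5.23e-05). AT1G73120 was at 53.9, 20.9 and 31 with caesium, 219.7, 335 and 251.6 under starvation, and 112, 70.3 and 128.2 in control roots. This gene too had 3 separate groups, and its difference was -2.50 ± 0.26 (adjusted p = 0.00105). AT3G07720 was at 249.1, 326.5 and 310.3 with caesium, 1680, 1030 and 1022 under starvation and 651, 374.6 and 559.7 in control roots (-1.99 ± 0.24, adjusted p = 0.00212). In AT5G38820, caesium values of 81.1, 87.5 and 63.5 stood against starved values of 280.6, 236.9 and 223.8 (-1.50 ± 0.15, adjusted p = 0.00105), and control values of 112.4, 87.1 and 96.6 overlapped those of caesium. AT5G05250 was at 79.1, 39.8 and 34.3 with caesium and at 125.9, 207.3 and 156.9 under starvation (-1.45 ± 0.24, adjusted p = 0.0106), a call that was lost without potassium-starved replicate 2 (adjusted p = 0.0536).

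A pair of listed genes did not follow the others. AT1G47400, on the iron list, was at 81.1, 60.2 and 36.2 with caesium, 75.9, 62.2 and 38.7 under starvation and 78.7, 32.6 and 45.5 in control roots, so that the groups overlapped throughout (-0.01 ± 0.29, adjusted p = 0.990). AT1G28680, on the coumarin list, was at 271.8, 339.3 and 251.5 with caesium against 292, 229.9 and 221.9 under starvation (0.20 ± 0.17, adjusted p = 0.496). Neither value shows that these genes were the same in both treatments, only that no difference was resolved with 3 arrays a group.

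**Figure D2:**
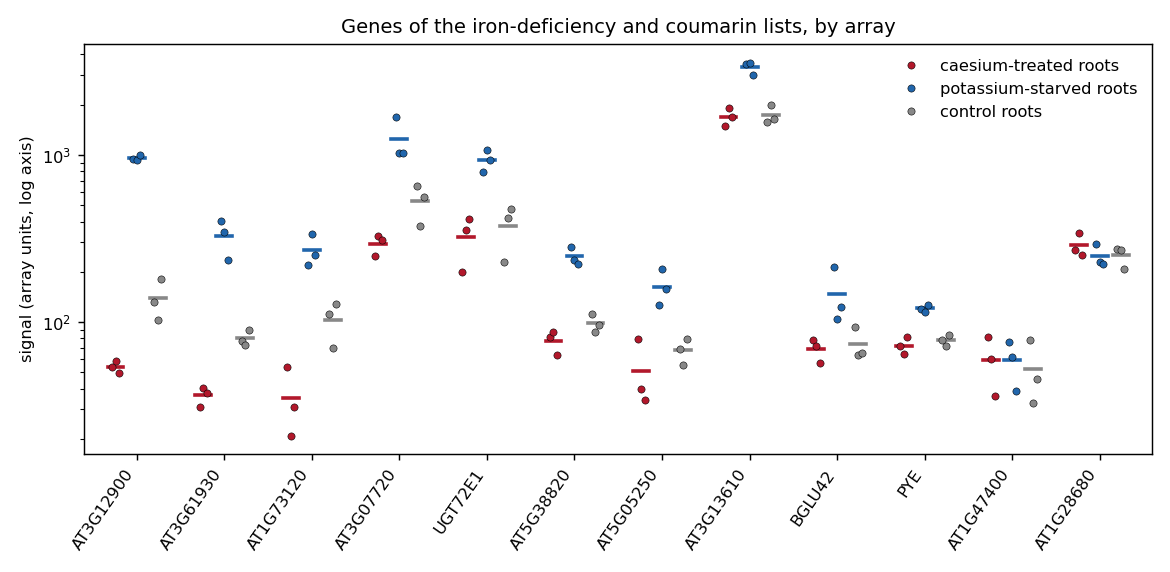
Signal on each root array (log axis) for the 12 tested members of both iron and coumarin lists, ordered by their difference. Points are arrays, short lines are group means of 3 arrays, red caesium-treated, blue potassium-starved and grey control roots. From AT3G12900 to PYE the blue points lie above all red points, while AT1G47400 and AT1G28680 overlap.

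Among the transcription factors of this cascade, PYE (POPEYE), a bHLH repressor within the iron response, was at 71.7, 64.3 and 81.2 with caesium, 120.5, 115.5 and 126.2 under starvation and 77.7, 71.5 and 84.3 in control roots. Starved roots stood apart from both other groups, and the difference was -0.63 ± 0.13 (adjusted p = 0.0229), although 4 of 9 fits without 1 array lost the call. BHLH101, a bHLH factor that activates iron uptake genes, was below the floor and not tested. It read 17.4, 8.2 and 8.1 with caesium against 55.2, 33.2 and 26 under starvation and 27.5, 8.7 and 16.1 in control roots. Of 5 further tested bHLH factors all 5 differences were negative, where 53.9% of all probe sets were above 0, with a median of -0.28, and 1 was called, where 2.56% of all were called lower. That one was bHLH115, an upstream activator of the cascade, at 488 ± 12.6 with caesium and 725 ± 5.32 under starvation (SD, n = 3; -0.56 ± 0.12, adjusted p = 0.0252). Its relatives ILR3, bHLH121, bHLH104 and bHLH34 had differences between -0.35 and -0.06 and were not called (adjusted p from 0.297 to 0.910).

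Potassium transport itself could hardly be read from the named probe sets. Of 27 listed potassium transport genes, 1 had a named probe set, and of 15 genes of low-potassium signalling 0 did, so the main uptake carrier and channels were not assessed here. The 1 named member, AT1G60160, was below the floor on every root array, at 13.6, 18.3 and 22.8 with caesium and 9.2, 12.7 and 8.4 under starvation. Of 7 cation/proton exchangers with a named probe set, a family that moves potassium across internal membranes, CHX16 was tested. It read 50, 66.7 and 76.7 with caesium, 5.6, 42.1 and 43.6 under starvation and 59.7, 21.5 and 47.9 in control roots (0.92 ± 0.37, adjusted p = 0.153), so the direction was not resolved. The other 6 were below the floor, with signals up to 25.3.

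Besides the iron list, the largest falls were led by genes that the annotation gives by locus only. AT5G19700 was at 26.1, 17.2 and 11.7 with caesium, 150.2, 222.2 and 203.3 under starvation and 51.6, 72 and 107 in control roots (-2.60 ± 0.23, adjusted p = 0.000473). Its caesium mean of 18.3 was below the floor, so the size of this difference depends on the 16 added to each signal. AT5G48430 was at 322.8, 480.8 and 408.4 with caesium, 1679, 1801 and 1582 under starvation and 936.6, 768.5 and 772.2 in control roots. Both genes had 3 separate groups with control roots in the middle, and AT5G48430 differed by -2.04 ± 0.16 (adjusted p = 0.000188). AT2G28710 was at 39.8, 43.1 and 45.5 with caesium against 172.4, 178.2 and 167.5 under starvation (-1.68 ± 0.16, adjusted p = 0.000857), with control roots at 58.2, 52.4 and 89.2.

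AT1G74770 was represented by 2 probe sets, which gave -1.78 ± 0.20 and -1.90 ± 0.24 (adjusted p = 0.00155 and 0.00309). On the brighter one the caesium arrays read 197.7, 254.6 and 204.8 and the starved arrays 839.7, 623.8 and 932.1. GAT1_2.1, a class I glutamine amidotransferase, was at 114.8, 171.8 and 117.2 with caesium, 536.7, 495.2 and 379.4 under starvation and 134.4, 130.4 and 253.4 in control roots. Control and caesium values overlapped here, and the difference between caesium and starvation was -1.70 ± 0.24 (adjusted p = 0.00584). AT2G16005 (-1.69 ± 0.31, adjusted p = 0.0166) and AT4G16000 (-1.998 ± 0.47, adjusted p = 0.0369) were the least stable of the 12 largest falls, passing in 6 and 3 of 9 fits without 1 array. AT4G16000 had a starved value of 165.1 in replicate 1 beside 61.1 and 44, and caesium values of 7.2, 12.5 and 3.9, below the floor. Control roots were at 55.4, 3.9 and 42.9. AT4G16000 entered the test only through the starved arrays where it was high, so its call is no support for a difference.

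Of the 12 largest falls, 10 passed in all 9 fits without 1 array and 7 under all 23 other settings. Those 7 were AT3G12900, AT3G61930, AT5G19700, AT1G73120, AT5G48430, AT2G25450 and AT2G28710. Among all 41 named genes past the threshold, AT5G38820 and BCAT4 were the only others to pass under all of them.

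Glucosinolate genes, which make the sulfur-rich defence compounds of the cabbage family, had 4 named of 19 listed members, and 2 of the 4 tested were lower with caesium, where 2.56% of all probe sets were (median -0.91, 0 higher). BCAT4, a branched-chain aminotransferase at the start of methionine chain elongation, was at 849, 894 and 597.3 with caesium, 2100, 2011 and 1762 under starvation and 1777, 1576 and 1287 in control roots. AT2G25450, on this list by locus, was at 184.5, 294.2 and 121.9 with caesium, 742.6, 734.7 and 641.3 under starvation and 532.2, 445.9 and 609.2 in control roots. In both genes the control values lay closer to starvation than to caesium. The differences were -1.33 ± 0.18 and -1.82 ± 0.25, each with an adjusted p of 0.00402. Against control, caesium gave -0.98 ± 0.18 for BCAT4 and -1.40 ± 0.25 for AT2G25450 (adjusted p = 0.0959 and 0.0825), while starvation gave 0.35 ± 0.18 and 0.41 ± 0.25 (adjusted p = 0.335 and 0.399). UGT74B1, the glucosyltransferase of the core pathway, differed by -0.17 ± 0.28 and AT2G31790 by -0.50 ± 0.30, neither called.

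Class III peroxidases, secreted heme enzymes that cross-link or loosen walls, had 40 tested members, of which 3 (7.5%) were lower and 0 higher, where 2.56% of all probe sets were lower and 2.5% higher (median 0.03, as for all probe sets). AT3G03670 was at 510.3, 681.4 and 596.2 with caesium, 1500, 1740 and 1662 under starvation and 1122, 678.8 and 918.7 in control roots (-1.44 ± 0.19, adjusted p = 0.00317). AT5G64100 (-0.76 ± 0.18) and AT4G11290 (-0.73 ± 0.17) passed narrowly, with adjusted p of 0.0407 and 0.0368, and each kept its call in 4 of 9 fits without 1 array. Heat shock proteins, which hold or refold other proteins, had 5 tested members, of which 1 was called lower and 1 higher, against 2.56% and 2.5% of all probe sets. AT1G53540 was at 18.1, 13.1 and 21.4 with caesium against 65.7, 54.5 and 92.2 under starvation and 9.6, 23.7 and 13.2 in control roots. Its caesium and control means were both below the floor, so that it entered the test only through the starved arrays where it was high, and its call is no support for a difference. AT3G09440, also on that list, was at 1209, 1251 and 1020.5 with caesium, 682.1, 469.8 and 513.6 under starvation and 619.6, 665.9 and 622 in control roots. Here the caesium arrays were the ones that stood apart, by 1.05 ± 0.16 over starvation (adjusted p = 0.00702). Over control the difference was 0.85 ± 0.16 and was not called (adjusted p = 0.0968). The call over starvation held in all 9 fits without 1 array but not when the 25S ribosomal RNA probe was made a covariate (adjusted p = 0.133).

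XTH19, a xyloglucan endotransglucosylase that cuts and rejoins wall polymers, was at 169.5, 199.8 and 155.4 with caesium, 79.5, 40.8 and 49.5 under starvation and 153.9, 136.2 and 104.8 in control roots. Starved roots were the low group, all below the lowest control array, and the difference was 1.42 ± 0.20 (adjusted p = 0.00579). Of 7 tested genes of its family, 6 differences were above 0, against 53.9% of all probe sets, and 1 was called higher, against 2.5% of all, with a median of 0.52. XTH18 and XTH20 had caesium values above all starved ones without passing (0.87 ± 0.29 and 0.55 ± 0.22, adjusted p = 0.0964 and 0.157). EXO (EXORDIUM), an apoplastic protein of cell expansion, was at 283.3, 208.3 and 289.7 with caesium, 94.1, 65.9 and 137.3 under starvation and 145.5, 307.9 and 114.6 in control roots (1.297 ± 0.32, adjusted p = 0.0414). Control roots spanned both groups, and the call held in 3 of 9 fits without 1 array. Expansins, which loosen walls without cutting them, had 12 tested members, of which 1 was called higher and 1 lower, against 2.5% and 2.56% of all probe sets. EXLB1 was higher, at 284.4, 320.2 and 216.9 against 156.6, 129.5 and 109.8 (0.97 ± 0.20, adjusted p = 0.0237), and EXPA4 lower, at 402.6, 352.5 and 333.3 against 553, 529.6 and 608.5 (-0.62 ± 0.15, adjusted p = 0.0436). These passed in 5 and 2 of 9 fits without 1 array.

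Glutathione S-transferases, which attach glutathione to toxic compounds, had 10 tested members, of which 2 were higher with caesium and 0 lower, where 2.5% of all probe sets were higher (median -0.03, with 5 differences above 0 and 5 below). GSTU25 was at 96.1, 220.8 and 167.2 with caesium, 17.2, 54.6 and 67.7 under starvation and 56.3, 41.5 and 52.7 in control roots. Every control array was below the lowest caesium array, and the difference between caesium and starvation was 1.54 ± 0.33 (adjusted p = 0.0279). Over control the difference was 1.36 ± 0.33 and was not called (adjusted p = 0.202). GSTU22 was at 272.8, 459.5 and 515.3 with caesium, 158.8, 122.4 and 177.7 under starvation and 113.6, 295.2 and 202.2 in control roots (1.32 ± 0.31, adjusted p = 0.0352). In this case control replicate 2 reached into the caesium range. GSTU25 kept its call in 6 and GSTU22 in 4 of 9 fits without 1 array.

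Lipid transfer and hybrid proline-rich proteins, small secreted proteins of the wall and cuticle, had 3 tested members, of which 2 were higher with caesium, where 2.5% of all probe sets were. AT4G12490 was at 138.6, 199.2 and 70.8 with caesium, 20.5, 38.3 and 28.4 under starvation and 23.9, 25.4 and 35.2 in control roots. Starved and control roots overlapped, and every caesium array was above both (1.68 ± 0.28 over starvation, adjusted p = 0.0106). Over control the difference was 1.70 ± 0.28 and was not called (adjusted p = 0.0644). AT5G01870 was at 1530, 557.1 and 1296 with caesium, 254, 308.2 and 527.8 under starvation and 465.3, 618.8 and 578.4 in control roots (1.54 ± 0.35, adjusted p = 0.0317). Caesium replicate 2 of that gene lay within the control range.

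BGLU25, a beta-glucosidase, had the largest rise of any named gene, with 482.4, 1000.1 and 807 with caesium, 275.8, 105.6 and 144.5 under starvation and 171.2, 793.3 and 406 in control roots. The control arrays spread across both groups, and the difference was 2.06 ± 0.48 (adjusted p = 0.0348), called in 4 of 9 fits without 1 array. AT5G10130 was at 254.9, 322 and 329.9 with caesium, 87.2, 62.8 and 68.8 under starvation and 108.6, 224.4 and 84.8 in control roots (1.84 ± 0.27, adjusted p = 0.00653). AT5G66590 was at 100.3, 97.8 and 86.6 with caesium against 17.7, 34.7 and 30.9 under starvation (1.36 ± 0.23, adjusted p = 0.0101), with control roots at 52, 69.7 and 29.5. In both genes every caesium array was above every control array, but caesium against control was not called (adjusted p = 0.200 and 0.262). The others of the 12 largest rises were AT5G14650 (1.60 ± 0.38), AT3G57010 (1.34 ± 0.26) and AT3G18600 (1.31 ± 0.30), with adjusted p between 0.0191 and 0.0403. In AT3G57010 the starved arrays, at 48.9, 29.3 and 26.6, were the ones apart from control roots at 146.7, 77.1 and 116.4, while caesium values of 158.8, 102.4 and 82 overlapped the control.

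Of these 12 rises 4 passed in all 9 fits without 1 array, XTH19, AT5G10130, AT4G12490 and AT5G66590, and 0 passed when the 25S ribosomal RNA probe was made a covariate (adjusted p from 0.100 to 0.271). With the summed shoot markers as a covariate 6 of them passed.

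**Figure D3:**
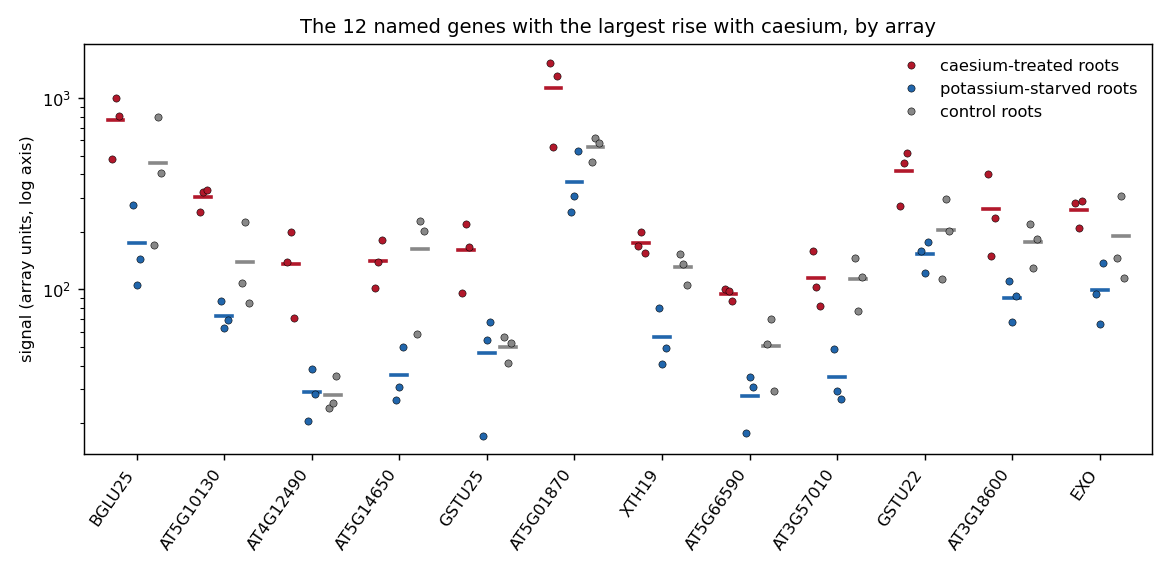
Signal on each root array (log axis) for the 12 named genes with the largest rise with caesium over starvation, ordered by size. Points are arrays and short lines group means of 3 arrays. The red caesium points lie above the blue potassium-starved points in every gene, while grey control points range from the starved level (AT4G12490, GSTU25) to the caesium level (AT5G14650, AT3G57010).

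Genes of cytosolic ribosomal proteins, the protein part of the ribosomes that translate nuclear messages, leaned towards higher signal with caesium. Of 222 listed genes 130 had a named probe set and 118 were tested. Of the 118, 116 had a difference above 0 (98.3%, against 53.9% of all probe sets), the median was 0.52 against 0.03, and 20 were called higher and 0 lower, where 2.5% of all probe sets were called higher. The 118 genes were measured on the same arrays and are not independent, so these shares describe 3 against 3 arrays. The 20 called members differed by 0.50 to 1.16 (adjusted p from 0.0150 to 0.0470).

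AT1G23410 was at 361.9, 178.3 and 275.9 with caesium, 92, 122.1 and 113.2 under starvation and 202, 181.4 and 188.2 in control roots (1.16 ± 0.21, adjusted p = 0.0160). AT3G06680 was at 697.2, 422.7 and 586.1 with caesium, 290.1, 253.8 and 248.5 under starvation and 548.5, 410.6 and 455 in control roots (1.04 ± 0.19, adjusted p = 0.0150). In both genes starved roots were the low group, and caesium replicate 2 lay within or near the control range. AT5G22440 (0.99 ± 0.20, adjusted p = 0.0241) and AT3G04920 (0.85 ± 0.17, adjusted p = 0.0229) had the same order, with caesium replicate 2 at 732 beside 1170 and 1212 in the first and at 666.7 beside 961.3 and 968.5 in the second.

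Across the list, the median relative to the 9-array mean was 0.50, -0.03 and 0.33 on the caesium arrays, -0.36, -0.15 and -0.29 under starvation, and 0.10, 0.02 and -0.14 in control roots. Caesium replicate 2 thus lay among the control arrays, and control replicate 3 was close to starved replicate 2. Against control the median of the list was -0.26 for starvation and 0.27 for caesium. The number of called members was 42 without caesium replicate 2, 0 without caesium replicate 1, caesium replicate 3 or potassium-starved replicate 3, 1 without potassium-starved replicate 2 and 9 without potassium-starved replicate 1. In the same order, 353, 45, 68, 48, 46 and 310 of all 13647 probe sets were called higher, so the loss was not particular to this list. The number of called members was 0 when the 25S ribosomal RNA probe was made a covariate, with a median of 0.50, and 23 with the summed shoot markers. Of all probe sets, 1 and 509 were called higher in these fits. Many ribosomal protein genes have near-identical copies that a probe set may share, so values of single members are uncertain. Of the 118 probe sets, 0 had a name that marks shared probes, and sharing was not tested further. Plastid-encoded genes (53 tested, median 0.04) and mitochondrion-encoded genes (12 tested, median -0.19) had 0 calls in either direction.

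**Figure D4:**
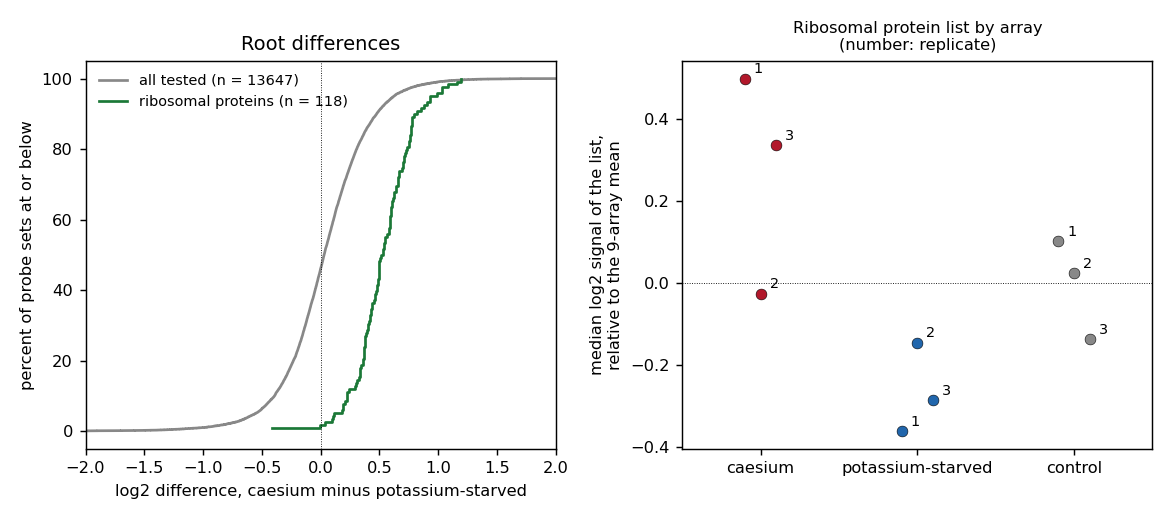
Left, cumulative percent of probe sets (vertical axis) at or below a given log2 difference, caesium-treated minus potassium-starved roots, for 118 ribosomal protein genes (green) and all 13647 tested (grey). Right, the list's median log2 signal on each array relative to the 9-array mean, numbered by replicate, with caesium replicate 2 at -0.03 among the control arrays.

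Whether the root difference was particular to roots was tested as the difference between organs over all 18 arrays, on 11867 probe sets above the floor in both. The same treatments gave 3885 calls in shoots (28.5%), 2558 higher with caesium (18.7%) and 1327 lower (9.72%). The difference between organs was called at 1660 probe sets (14%). Of the 341 probe sets higher with caesium in roots, 297 were above the floor in both organs, and among these 101 were also called higher in shoots, 10 were called lower there and 80 differed between organs. Of the 349 lower in roots, 278 could be compared, with 55 called lower in shoots, 16 called higher there and 108 differing between organs. These probe sets were chosen by their root difference, which enters the difference between organs again. The counts of 80 and 108 therefore cannot be read against the 14% of all probe sets.

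XTH19 and EXO went opposite ways in the organs. XTH19 fell in shoots, with signals of 48.9, 22.1 and 33.4 under caesium and 118.4, 149.5 and 225.8 under starvation (-1.82 ± 0.25, adjusted p = 0.00139), and roots minus shoots was 3.24 ± 0.34 (adjusted p = 4.06e-05). EXO was at 130.2, 108.5 and 54.1 in caesium-treated and 425.3, 454.7 and 161.3 in potassium-starved shoots (-1.62 ± 0.39, adjusted p = 0.0128), with 2.91 ± 0.54 between organs (adjusted p = 0.00328). The ribosomal protein gene AT3G06680 was also lower with caesium in shoots (-1.07 ± 0.23, adjusted p = 0.00803), a difference between organs of 2.11 ± 0.30 (adjusted p = 0.000504). Of 117 ribosomal protein genes above the floor in both organs, the median in shoots was -0.16 with 3 higher and 9 lower. Between organs 38 differed, all 38 with the root difference the higher one. Over all 11867 probe sets the shoot median was 0.12, with 2231 called higher and 1191 lower in shoots. Of the 11867, 733 differed between organs with the root difference the higher one.

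Of 7 iron-list genes above the floor in both organs, 2 were called lower in shoots and 4 differed between organs, each lower on the root side. Of all 11867 probe sets, 1191 were called lower in shoots and 927 differed between organs with the root side lower. AT3G07720 was at 184.5, 181.8 and 199.8 in caesium-treated and 884.5, 438.9 and 366 in starved shoots (-1.40 ± 0.27, adjusted p = 0.00514), and AT3G13610 differed by -1.01 ± 0.33 there (adjusted p = 0.0419). For these genes the difference between organs was -0.59 ± 0.38 and 0.03 ± 0.38 and was not called (adjusted p = 0.299 and 0.972). AT1G73120 by contrast was near the same low level in shoots of both treatments, at 42.1, 15.4 and 46.8 against 56.2, 33.9 and 45.3, and differed between organs by -2.19 ± 0.48 (adjusted p = 0.00906). AT2G28710, not on the list, was lower with caesium in shoots by -1.73 ± 0.18 (adjusted p = 0.000492) and in roots by -1.68, and AT3G09440 was higher in both by 1.02 ± 0.20 (adjusted p = 0.00515) and 1.05.

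**Figure D5:**
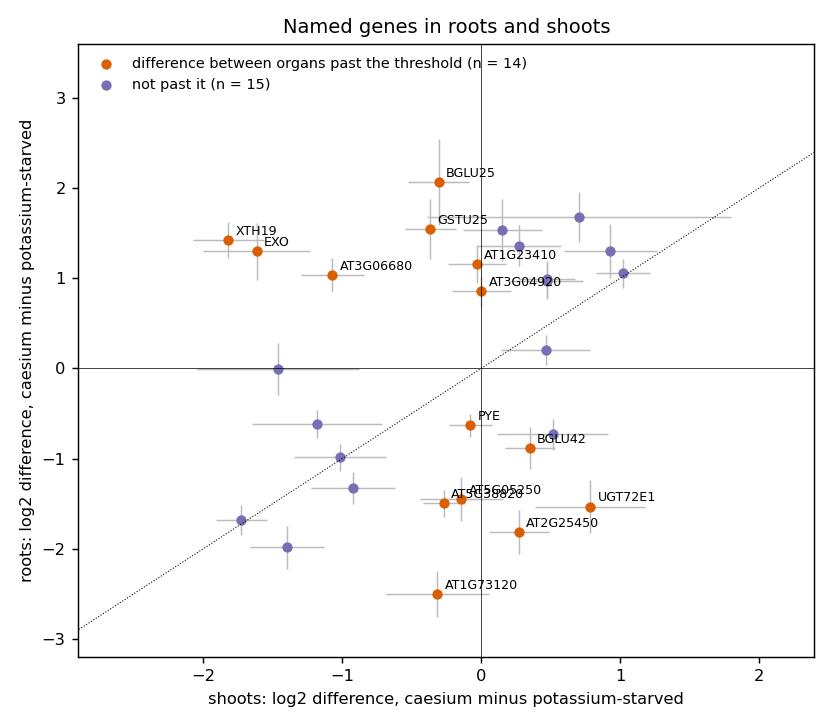
Difference between caesium-treated and potassium-starved samples in roots (vertical axis, log2) against the same difference in shoots (horizontal axis, log2) for the 29 named genes above the floor in both organs, with standard errors. Orange marks the 14 genes whose difference between organs passed an adjusted p of 0.05, and the dotted line is equality. XTH19, EXO and AT3G06680 lie at the upper left, higher in roots and lower in shoots.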

How the data were processed

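Per the labels, total RNA of pooled plants was made into biotin-labelled cRNA from an oligo-dT primer and hybridised to 1 ATH1 array per sample. Each deposited file gives 1 signal intensity per probe set, on a linear scale. How the authors computed and scaled it, and the genome build, are not given in the sources used here. Detection calls stayed out. The 18 arrays are the only depth, and their number limits the precision. Of 22810 probe sets, 64 controls were left out.

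Signals were transformed as log2(signal + 16) with no further scaling. Probe sets with a mean above the 40th percentile of the 9 root arrays, a signal of 27.7, were tested (26.7 in shoots). The 9 root arrays entered 1 limma 3.58.1 model with eBayes in R 4.3.3. The contrast was caesium-treated minus potassium-starved, and two-sided p-values got a Benjamini-Hochberg adjustment over all probe sets tested, with a threshold of 0.05. The difference between organs was an interaction term over 18 arrays. Array measures were compared by exact permutation tests.

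The annotation tables gave 13513 probe sets 1 gene, 503 several and 8730 none, and 7405 of those tested had 1 gene. Genes that the tables give by locus only carry no role beyond the list they are on. Named genes were, past the threshold, the 12 that rose most and the 12 that fell most with groups that do not overlap, up to 4 members of each list with at least 2 called, and every tested member of the potassium and iron lists. Genes, lists and members were chosen with earlier results of these data known. Some lists were added, and 3 family patterns corrected because they had caught other genes, after the probe table was seen. A planned motif search in promoters was not run here. The alternatives are given in the closing section. The fit was also run on simulated arrays with independent noise for every value. These held no array-wide or replicate differences, so that run says nothing about such differences in the real arrays.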

Additional observations from a re-analysis of the deposited data

Results flagged for a closer look

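The response of roots and shoots to the same contrast, caesium-treated against potassium-starved, differed at 1660 of 11867 probe sets by the interaction term over 18 arrays (limma adjusted p under 0.05). With 1 array left out the count was 841, 916, 980 and 1028 without root potassium-starved replicates 1 and 3 and root caesium replicates 1 and 3, and 1028 and 916 without shoot caesium replicate 1 and shoot potassium-starved replicate 2. The highest, 1946, came without root potassium-starved replicate 2. Among the named genes the same test called 14, and values here are the root difference minus the shoot difference on the log2 scale. Many named genes were chosen by their root difference, which enters this test again. Their number and side are therefore no independent evidence of a difference between organs.

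Of the 14, 7 were higher on the root side. XTH19 stood at 3.24 (adjusted p = 4.06e-05), EXO at 2.91 (0.00328, adjusted p), BGLU25 at 2.37 (adjusted p = 0.0143) and GSTU25 at 1.91 (adjusted p = 0.00742). The ribosomal protein genes AT3G06680, AT1G23410 and AT3G04920 stood at 2.11, 1.19 and 0.85 (adjusted p = 0.000504, 0.0182 and 0.0483).

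The other 7 were lower on the root side, 6 of them on the iron and coumarin lists. UGT72E1 stood at -2.32 (adjusted p = 0.0107), AT1G73120 at -2.19 (adjusted p = 0.00906), AT5G05250 at -1.31 (adjusted p = 0.0421), BGLU42 at -1.24 (adjusted p = 0.0145), AT5G38820 at -1.23 (adjusted p = 0.00150) and PYE at -0.56 (adjusted p = 0.0499). AT2G25450, on the glucosinolate list, stood at -2.09 (adjusted p = 0.00140). BGLU42 is the member of this group that was not called in roots alone.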

How the results depend on the processing

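The 690 calls (341 higher with caesium, 349 lower, 204 by 2-fold or more) became 331 (138 higher, 193 lower) with scanner background as a covariate, 2539 (1441 and 1098) with array weights, 377 (206 and 171) without the 2 arrays titled as repeats, and 21 (1 and 20, all 21 by 2-fold) when the 25S ribosomal RNA probe was made a covariate, the last chosen after the data were seen. With no filter on low values 223 were higher. Calls of 2-fold or more were 83 with a pseudocount of 64 and 456 with the summed shoot markers as a covariate. With each array centred on its median, which moved the median of all probe sets from 0.03 to -0.03, 272 of 755 calls were higher and 483 lower. Leaving out 1 array gave 149 to 767 calls, 45 to 387 higher, 103 to 386 lower and 97 to 267 by 2-fold, and 841 to 1946 differences between organs. Deviations of same-numbered caesium and starved arrays correlated with r of 0.297, 0.0864 and 0.277, under the rule that each exceed 0.1, so the numbers were not taken as pairs. With the replicate number as a block there were 1629 calls (929 and 700), and 2775 differences between organs with organ and number as blocks. Each caesium array correlated best with the starved array of its own number. Starved replicates 1 and 3 also correlated best with their own number, while starved replicate 2 correlated best with caesium replicate 3. The numbers may thus carry some shared variation, which was not tested further. Of 1029 values of the 45 named genes under other settings, 838 kept direction and side of the threshold, 178 no longer passed, 6 newly passed and 7 changed sign. Those 7 were all of AT1G47400, at -0.01 with all 9 arrays and never called. It was at 0.084 with scanner background and 0.14 with summed shoot markers as a covariate, 0.14 with array weights, 0.12 without the arrays titled as repeats, 0.16 and 0.04 without starved replicates 1 and 2, and between -0.22 and 0.23 with any 1 array left out, the highest without caesium replicate 3.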

Other observations

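Further genes with an annotated symbol differed between caesium-treated and potassium-starved roots, and they were named after their values were seen. MGL, a methionine gamma-lyase, was at 146 ± 22.2 with caesium, 347 ± 78.2 under starvation and 145 ± 46.7 in control roots (SD, n = 3; -1.15 ± 0.22, limma adjusted p = 0.0183). IVD, the isovaleryl-CoA dehydrogenase of leucine breakdown, was at 133 ± 25.2, 238 ± 28.0 and 133 ± 13.3 in the same order (SD, n = 3; -0.78 ± 0.16, adjusted p = 0.0236). MCCA, a methylcrotonyl-CoA carboxylase subunit of that pathway, was at 197 ± 34.7, 422 ± 37.5 and 294 ± 50.6 (SD, n = 3; -1.05 ± 0.17, adjusted p = 0.00997). ASPGB1, an asparaginase, was at 235 ± 31.1, 636 ± 137 and 179 ± 49.9 (SD, n = 3; -1.36 ± 0.22, adjusted p = 0.00960).

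The autophagy gene ATG8E was lower (-0.87 ± 0.17, adjusted p = 0.0198), and all 11 tested autophagy genes had a negative difference (median -0.27), where 53.9% of all probe sets were above 0, with 1 called, where 2.56% of all were called lower. WRKY22, a transcription factor of defence signalling, was at 58.9 ± 10.3 with caesium, 205 ± 26.2 under starvation and 76.8 ± 12.3 in control roots (SD, n = 3; -1.56 ± 0.16, adjusted p = 0.00105). ZIP9, a metal transporter, was at 39.0 ± 10.1, 77.4 ± 7.14 and 52.3 ± 18.6 (SD, n = 3; -0.78 ± 0.19, adjusted p = 0.0455).

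Among genes higher with caesium were NRPC2, a subunit of RNA polymerase III (0.85 ± 0.13, adjusted p = 0.00800), HLL, a mitochondrial ribosomal protein (0.76 ± 0.15, adjusted p = 0.0229), and Cpn60beta2, a plastid chaperonin (1.21 ± 0.29, adjusted p = 0.0398). The glucosyltransferase UGT72E3 was higher, at 114 ± 29.8 against 51.4 ± 7.61 (SD, n = 3; 0.92 ± 0.18, adjusted p = 0.0209), where its relative UGT72E1 was lower. Control roots were at 113 ± 16.7 for UGT72E3, level with caesium, so that starved roots were the low group (-0.93 ± 0.18 against control, adjusted p = 0.0363). These are examples, not a survey.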
